A study of Mus musculus with 2 samples.

Results

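The probes described here measure mmu-miR-99a, mmu-miR-99b, mmu-miR-100, mmu-miR-125a and mmu-miR-125b (mmu for mouse, left out below), all arms included, in mononuclear cells from the lamina propria of the mouse colon. They were chosen by name and number 11 of the 1900 mouse miRNA probes on the arrays. The samples were total RNA from male Balb/c mice, 1 array for germ-free animals, which are raised without microbes, and 1 array for specific pathogen-free (SPF) animals, which carry a gut microbiota. How many animals gave each sample, and their age, are not stated in the labels. There is 1 array per group and hence no replicate error and no p-value, so every value below describes these 2 arrays. In total RNA from a mixed isolate, fewer cells of a type and less of a miRNA per cell cannot be told apart.

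A miRNA is cut from a hairpin precursor, and one of its arms guides the silencing complex to mRNAs that pair with its seed, bases 2 to 8 from the 5′ end. The miR-99 and miR-100 family is known for repressing Mtor and the insulin-like growth factor receptor. The miR-125 family, the vertebrate relative of worm lin-4, acts in haematopoietic stem cells and B cell development, and miR-125b is abundant in many stromal cells. Genes of both families sit together with a let-7 gene in conserved clusters. The let-7 miRNAs act in differentiation.

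The mature sequences below show how close the 5p arms are to each other. They come from RefSeq (GRCm38.p6), which held all 11 members, with the seed in capitals. The deposited files give no probe sequences.
miR-99a-5p: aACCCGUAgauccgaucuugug
miR-100-5p: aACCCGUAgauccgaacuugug
miR-99b-5p: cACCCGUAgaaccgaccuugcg
miR-125a-5p: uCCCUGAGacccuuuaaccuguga
miR-125b-5p: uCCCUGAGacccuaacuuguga
The first 3 share the seed ACCCGUA and the last 2 the seed CCCUGAG, so the 5p arms fall into 2 seed groups. Counting positions from 1 at the 5′ end, miR-99a-5p and miR-100-5p differ by the single substitution U16A. From miR-99a-5p to miR-99b-5p there are 4 substitutions, A1C, U11A, U16C and U21C. miR-125a-5p and miR-125b-5p lie 3 edits apart and are 24 and 22 bases long. Spots for such close sequences can share signal, and how well the probes separate them was not tested.

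The 3p arms are less alike and are printed for the same reason.
miR-99a-3p: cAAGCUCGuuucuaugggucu
miR-99b-3p: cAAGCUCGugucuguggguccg
miR-100-3p: aCAAGCUUgugucuauagguau
miR-125a-3p: aCAGGUGAgguucuugggagcc
miR-125b-1-3p: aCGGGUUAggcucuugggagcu
miR-125b-2-3p: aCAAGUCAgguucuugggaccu
Only miR-99a-3p and miR-99b-3p of these 6 share a seed. The 3p arms of the miR-125 genes lie 4 or 5 substitutions apart. The hairpin of Mir125a, with its 2 mature arms in capitals, shows where the brightest and a much dimmer probe of this set map.
Mir125a: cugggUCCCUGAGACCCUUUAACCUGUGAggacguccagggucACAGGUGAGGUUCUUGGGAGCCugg

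The 6 genes of the 11 arms lie in 3 clusters (GENCODE M21, GRCm38), all on the plus strand. The most compact is on chromosome 17, where Mir99b, Mirlet7e and Mir125a span 692 bases from 17830188 to 17830879. Mir99b and Mirlet7e lie in an intron of the protein-coding gene Spaca6, and Mir125a overlaps one of its annotated exons. On chromosome 16, Mir99a, Mirlet7c-1 and Mir125b-2 span 77598936 to 77646343 within introns of the non-coding gene Mir99ahg. On chromosome 9, Mir100, Mirlet7a-2 and Mir125b-1 span 41531425 to 41582002 within introns of the non-coding genes 3110039I08Rik and Gm49317. Mir125b-1 also overlaps an exon of Gm28119, annotated as a sense intronic transcript. The miR-125b-5p sequence is the same from chromosomes 9 and 16, so its probe reads both genes together.

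Of the 11 probes, 8 were above the floor on both arrays, 2 on the SPF array only and 1 on neither. Net intensity is a spot's intensity minus the mean of the blank spots, in arbitrary units. A probe counted as above the floor if its net intensity exceeded 2 SD of the blank spots, which was 9.05 for germ-free and 10.7 for SPF. The share of all 1900 probes that passed was 77.4% for both arrays, 81% for germ-free and 79.5% for SPF. The same 8 members also passed a stricter level, set 2 SD over the mean of spots that carry no probe (net 37.2 and 43.9), which 54.8% of all probes passed on both arrays. All 5 of the 5p arms and 3 of the 6 3p arms were among these 8.

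With the blank spots as background, none of these 8 members differed by 2-fold or more between the arrays. Of the 1471 probes that passed on both arrays, called shared below, 1.56% reached 2-fold with SPF higher and 1.43% with SPF lower. After the SPF values were scaled by 0.849, 5 of the 8 members read higher on the SPF array and 3 read lower, against 42.4% higher among all shared probes. Without scaling the split was 6 higher and 2 lower (71.9% of all shared probes higher), and with scaling on the bright controls 4 and 4 (28.4%). Under the reported scaling their median log2 SPF over germ-free was 0.16, against -0.06 for all shared probes. The errors given with the values below are technical SDs from the blank spots and from control probes spotted 8 times, and they hold no spread between arrays or animals. They also leave out the spread of the spots without a probe, which was wider than that of the blank spots. Those spots had a mean net intensity of 14.9 for germ-free and 17.9 for SPF, and reached 37.2 and 43.9 at 2 SD above it. For dim probes the errors may therefore be too small.

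**Figure D1:**
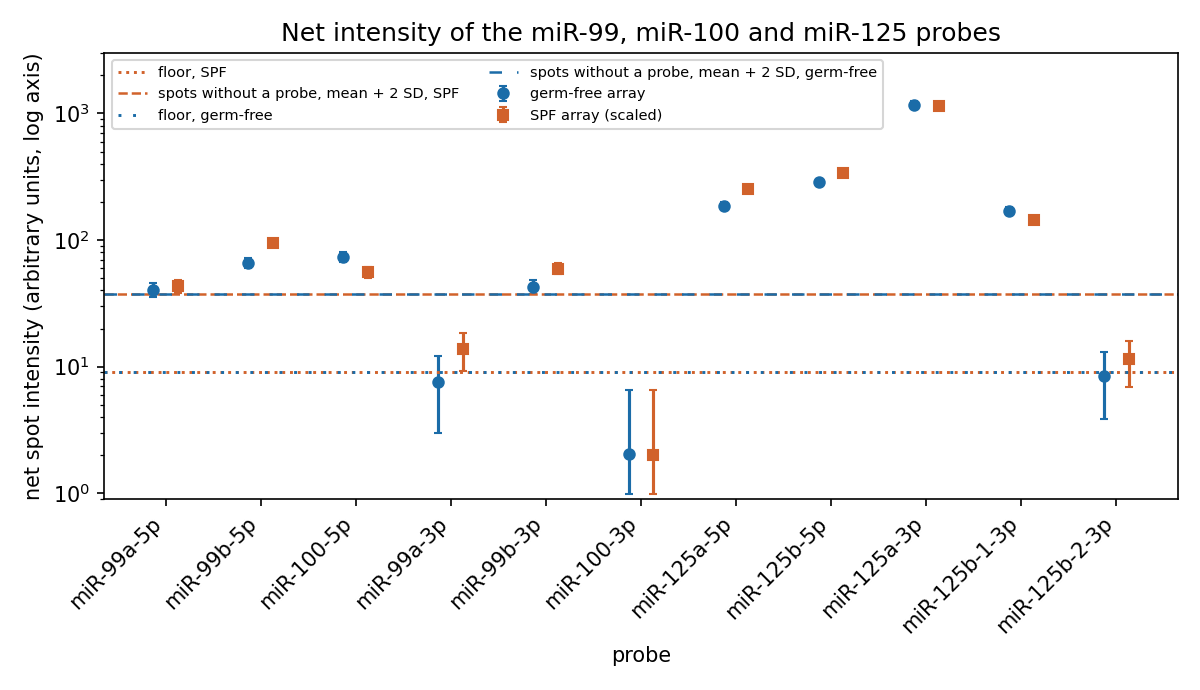
Net spot intensity of the 11 probes (log axis, arbitrary units) on the germ-free array (circles) and, after scaling, on the SPF array (squares), with bars of 1 technical SD, cut at the lower edge for the dimmest probe. Dotted and dashed lines are the floor and the level of spots without a probe, which nearly coincide between the arrays; 3 of the 3p arms lie under the dashed lines and miR-125a-3p lies far above the other probes.

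Among the 8 shared members, the miR-99b gene gave the highest log2 values under the reported processing, in both arms. The miR-99b-5p spot had a net intensity of 66.0 for germ-free and 111.9 for SPF, or 95.0 after scaling. This is a log2 SPF over germ-free of 0.53 ± 0.18 (technical SD), a 1.44-fold difference. The other arm, miR-99b-3p, had net intensities of 42.9 and 70.0 and a scaled SPF level of 59.4, a log2 value of 0.47 ± 0.23. Both arms were thus brighter on the SPF array, and their 2 log2 values differed by 0.06 ± 0.29. Among the 1471 shared probes, 94.4% had a lower log2 value than miR-99b-5p and 93.0% a lower one than miR-99b-3p. The 2 spots lie in different blocks of the array. In block 16, which holds miR-99b-3p, the median of 51 shared probes was 0.32, while in block 20, which holds miR-99b-5p, the median of 46 was -0.16. The part of block position in these values was not tested.

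The near-identical miR-99a-5p and miR-100-5p had lower log2 values than miR-99b-5p, by 0.43 ± 0.31 for the former. For miR-99a-5p the net intensity was 40.4 for germ-free and 50.9 for SPF (43.2 scaled), the dimmest of the 5p arms and close to the level of spots without a probe. Its log2 value was 0.10 ± 0.26, so the arrays did not differ by more than the technical SD. For miR-100-5p the net intensities were 73.8 and 65.6 (55.7 scaled), a log2 value of -0.41 ± 0.20. Under the reported processing it was the lowest of the 8 shared values and the only 5p arm that was dimmer on the SPF array. miR-125b-1-3p was lower with local background subtraction (-0.63 against -0.29) and without background subtraction (-0.14 against -0.13). The log2 value of miR-99b-5p exceeded that of miR-100-5p by 0.93 ± 0.26, more than 3 times the technical SD. That SD leaves out the wider spread of the spots without a probe, which matters for spots as dim as these. The gap between miR-99a-5p and miR-100-5p, which differ in 1 base, was 0.50 ± 0.32.

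In the miR-125 family both 5p arms read higher on the SPF array. The miR-125a-5p spot had a net intensity of 185.8 for germ-free and 298.6 for SPF (253.6 scaled), a log2 value of 0.45 ± 0.14. The miR-125b-5p spot had 286.3 and 396.1 (336.3 scaled), a log2 value of 0.23 ± 0.13. The larger of these differences was 3.31 times its technical SD and the smaller 1.76 times, and the 2 log2 values were 0.22 ± 0.19 apart. With local background subtraction the values were 1.75 and 2.32. These spots sit next to each other in block 18, whose 53 shared probes had a median of -0.16.

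The measurable 3p arms of the miR-125 genes had lower log2 values than the 5p arms of the same hairpins. miR-125a-3p was the brightest of the 11 probes, with a net intensity of 1172 for germ-free and 1337 for SPF (1135 scaled). It was brighter than 91.2% of all miRNA probes on the germ-free array. Its log2 value was -0.05 ± 0.13, with no difference beyond the technical SD. Within each array its spot was 6.31 times (germ-free) and 4.48 times (SPF) as bright as that of miR-125a-5p, the arm from the same hairpin. Brightness also depends on the probe, so this ratio is not a ratio of molecules. The log2 value of miR-125a-5p exceeded that of miR-125a-3p by 0.49 ± 0.19. miR-125b-1-3p, cut from the chromosome 9 hairpin, had net intensities of 169.6 and 169.3 (143.8 scaled) and a log2 value of -0.24 ± 0.14. miR-125b-5p exceeded it by 0.47 ± 0.19.

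The remaining 3p arms were at or near the floor. miR-99a-3p had a net intensity of 7.56 on the germ-free array, under the floor, and 16.4 on the SPF array. miR-125b-2-3p was likewise under the floor at 8.44 on the germ-free array and above it at 13.5 on the SPF array. Against the germ-free floor these give log2 values of at least 0.62 and 0.34, and both lie under the level of spots without a probe on each array. miR-100-3p was under the floor on both, at 2.05 and 2.36. These 3 arms are therefore not told apart from empty spots here.

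**Figure D2:**
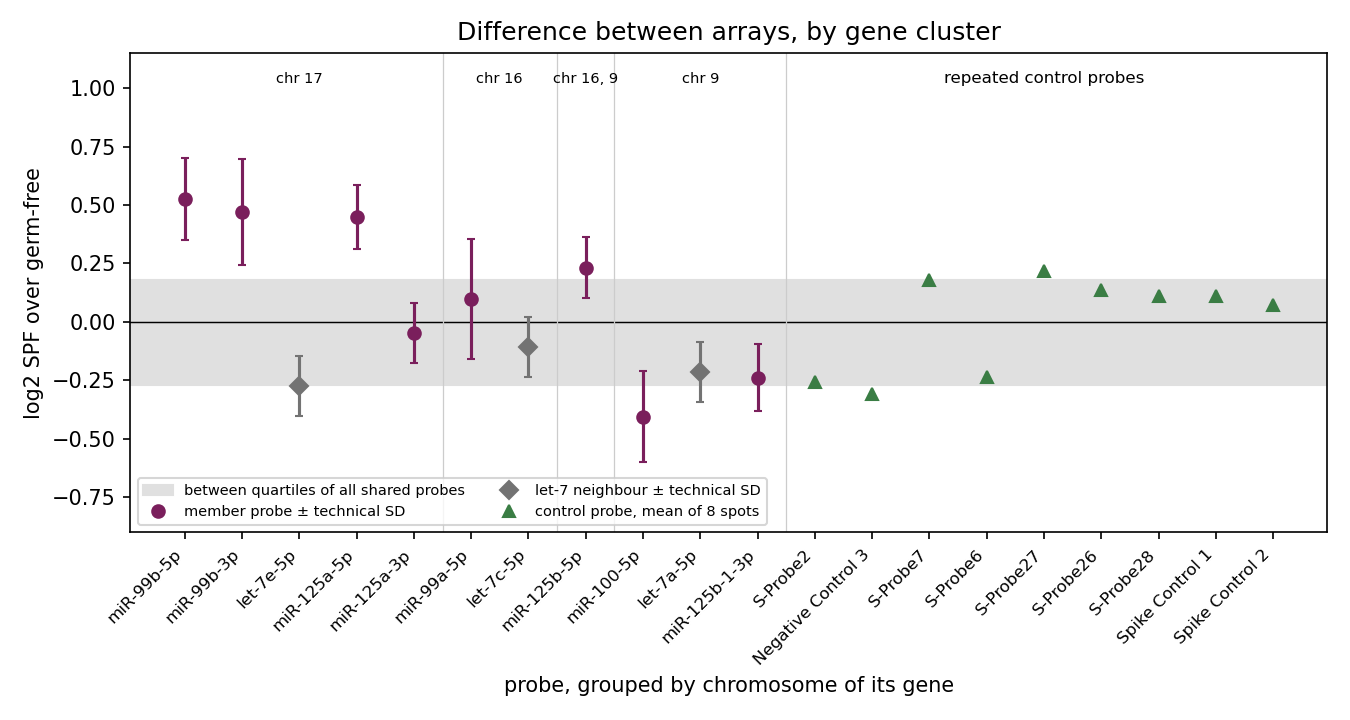
Log2 SPF over germ-free of the 8 members above the floor on both arrays (circles) and of their let-7 neighbours (diamonds), grouped by chromosome, with bars of 1 technical SD; triangles are control probes, each the mean of 8 spots, ordered from dim to bright. The grey band is the range between the quartiles of all 1471 shared probes, from -0.27 to 0.18; miR-99b-5p, miR-99b-3p, miR-125a-5p and miR-125b-5p lie above it and miR-100-5p below it.

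By cluster, the chromosome 17 genes held the 3 highest log2 values of the 8 shared members under the reported processing. These are miR-99b-5p, miR-99b-3p and miR-125a-5p, with miR-125a-3p as the exception at -0.05. The middle gene of that cluster did not read higher. The let-7e-5p spot had a net intensity of 2636 for germ-free and 2568 for SPF (2181 scaled) and a log2 value of -0.27 ± 0.13 (-0.04 without scaling). It was below miR-125a-5p by 0.72 ± 0.19 and below miR-99b-5p by 0.80 ± 0.22. let-7e-3p was under the floor on both arrays. Under the reported scaling, probes of this 1 cluster thus had values on both sides of 0.

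In the other clusters the let-7 neighbours were also close to or below 0. let-7c-5p, from chromosomes 15 and 16, was at -0.11 ± 0.13 (0.13 without scaling), beside miR-99a-5p at 0.10. let-7a-5p, whose sequence lies in hairpins on chromosomes 9 and 13, was at -0.21 ± 0.13 (0.02 without scaling), beside miR-100-5p at -0.41 and miR-125b-1-3p at -0.24. The let-7 3p arms were dim. let-7a-2-3p and let-7c-1-3p had net intensities of 11.5 and 15.98 on the germ-free array and log2 values of 0.22 ± 0.76 and 0.18 ± 0.56. The probe shared by let-7a-1-3p and let-7c-2-3p, whose genes on chromosomes 13 and 15 lie outside these clusters, was at -0.41 ± 0.52. These let-7 3p probes all lie under the level of spots without a probe on both arrays.

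Relatives by sequence had lower log2 values than the 5p arms of miR-125. The seed CCCUGAG of miR-125a-5p and miR-125b-5p is also carried by 3 other probes on the arrays, those of miR-351-5p, miR-6367 and miR-6394.
miR-351-5p: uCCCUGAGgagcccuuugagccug
miR-6367: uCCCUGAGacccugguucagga
miR-6394: uCCCUGAGuggggccaggucu
Their log2 values were -0.26 ± 0.13, -0.12 ± 0.29 and -0.16 ± 0.13, so all 3 lay below the 2 members, though without scaling miR-6367 and miR-6394 were above 0, at 0.12 and 0.07. On the SPF array the dim miR-6367 spot was under the level of spots without a probe, with a net intensity of 40.9 against 43.9. miR-351-3p, the other arm of miR-351, was at -0.47 ± 0.19. The closest sequences outside the miR-99 and miR-100 5p arms are those of the miR-10 family, which is encoded in Hox clusters.
miR-10a-5p: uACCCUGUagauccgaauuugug
miR-10b-5p: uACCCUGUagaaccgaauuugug
miR-10a-5p lies 3 edits from miR-100-5p and 4 from miR-99a-5p, with another seed. The miR-10a-5p spot had net intensities of 620.7 and 334.6, a log2 value of -1.13 ± 0.13, and miR-10b-5p 528.4 and 276.7, a value of -1.17 ± 0.13. With local background subtraction miR-10a-5p was at 0.11 and miR-10b-5p had no value. Of the members, miR-100-5p was the nearest to them in log2 value, and miR-99b-5p read the opposite way. How much miR-10 signal the miR-99 and miR-100 probes pick up was not tested.

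**Figure D3:**
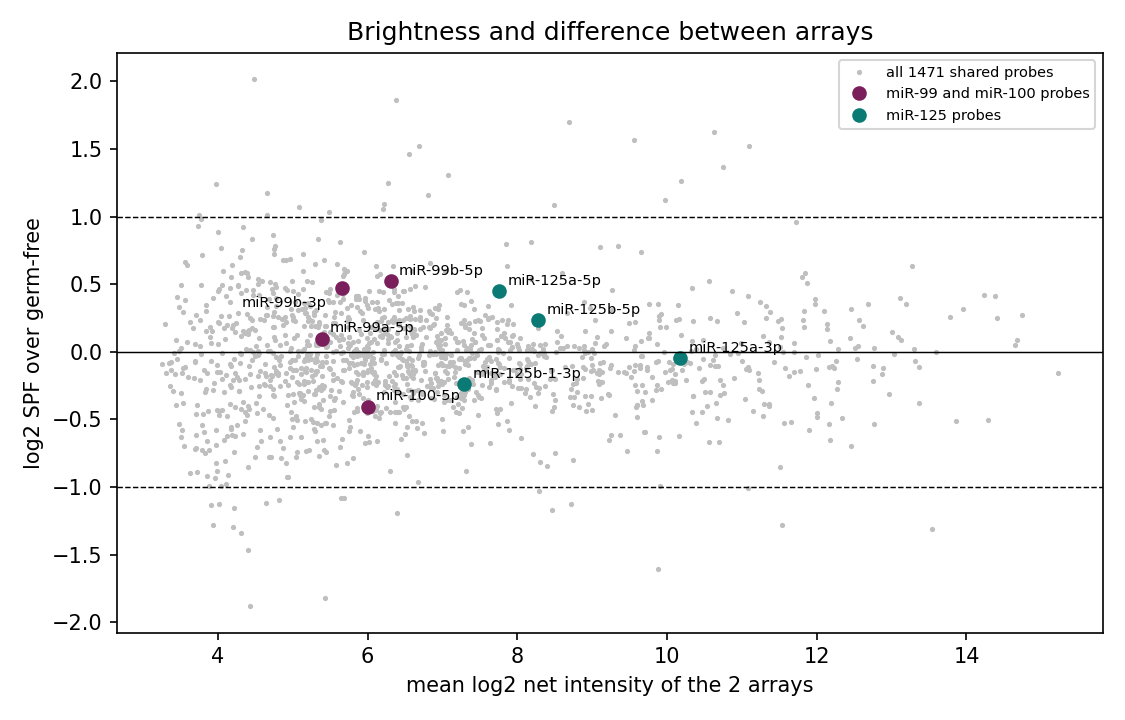
Log2 SPF over germ-free against the mean log2 net intensity of the 2 arrays for all 1471 shared probes (grey), the 4 shared miR-99 and miR-100 probes and the 4 shared miR-125 probes; dashed lines mark 2-fold. All 8 members lie within the dashed lines, and the miR-99 and miR-100 probes lie on the dim side of the cloud.

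Probes that name no miRNA also differed between the arrays. The 5 bright control probes differed between the scaled arrays by 0.07 to 0.22. Nearer the brightness of the miR-99 and miR-100 probes, 4 dimmer control probes with germ-free means from 27.2 to 65.7, each over 8 spots, differed by -0.31, -0.26, -0.24 and 0.18. The control at -0.31 is named Negative Control 3, and the bright ones include Spike Control 1 and Spike Control 2. The others are named S-Probe. Beyond these names, the labels do not say whether the controls respond to sample RNA. The 876 shared probes between the dimmest and the brightest member had quartiles of -0.24 and 0.14, and their lowest and highest 5% lay beyond -0.59 and 0.46. The values of miR-99b-5p and miR-99b-3p were just above 0.46, that of miR-125a-5p just under it, and that of miR-100-5p above -0.59. Further than 2 technical SD from 0 were 4 of the 8 members, and 23.5% of all shared probes.

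By brightness on the 2 arrays, the probes most like miR-99b-5p were miR-6944-3p, miR-28c and miR-5622-5p, at Euclidean distances of 0.07 to 0.09 over the 2 log2 net intensities. Those most like miR-125b-5p were miR-7028-3p, miR-8112 and miR-760-3p, at 0.02 to 0.04. With 2 arrays this measure says only that the spots had similar intensities.

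Markers of cell types moved between the same arrays. All 8 epithelial marker probes were higher on the SPF array, with log2 values from 1.09 to 1.62 and a summed level of 5458 for germ-free and 14529 for SPF. Of 5 lymphocyte marker probes 4 were lower, with a median of -0.59 and summed levels of 21152 and 9237. Without miR-150-5p, the brightest of them, the sums were 2453 and 1684. Of 3 myeloid and pan-leukocyte probes 2 were lower, miR-142a-5p at -0.66 and miR-142a-3p at -1.01, which are arms of the same miRNA. The other, miR-223-3p, was higher at 0.74 ± 0.13. The summed levels of this list were 9502 and 6255, and leukocyte markers were thus present on both arrays. Of the 7 stromal, muscle and endothelial probes 4 were higher and 3 lower, from -1.17 to 0.45 with a median of 0.01. Their summed levels were 2048 and 1690, to which miR-10b-5p alone gave 528 and 235. All 4 erythroid probes were lower, with summed levels of 7920 and 6297. Every marker probe was above the floor on both arrays. The erythroid miR-144-3p, the lowest of its list at -0.77 ± 0.27, was under the level of spots without a probe on the SPF array. Its net intensity there was 36.6, against 43.9. With local background subtraction, under which a probe has a value only if it exceeds its local background on both arrays, several marker directions turned. Of the 2 lymphocyte probes that then had a value both were higher, as were 2 of 3 myeloid and pan-leukocyte probes and 1 of 4 erythroid probes (miR-451a at 1.004), and of 5 epithelial probes 4 were higher and miR-200a-3p was at -0.10. Of 4 stromal, muscle and endothelial probes 3 were higher, among them miR-199a-5p at 1.95 (-0.22 as reported). The other, miR-126a-3p, was at -1.44 (0.25 as reported). The 8 shared members' values, from -0.41 to 0.53, were under the reported processing all lower than those of the epithelial markers. They overlapped those of every other marker list. The lymphocyte probes ran from -1.31 to 0.31 and the myeloid and pan-leukocyte probes from -1.01 to 0.74. The stromal, muscle and endothelial probes ran from -1.17 to 0.45 and the erythroid probes from -0.77 to -0.27. The part of cell composition in the members' values was not tested.

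**Figure D4:**
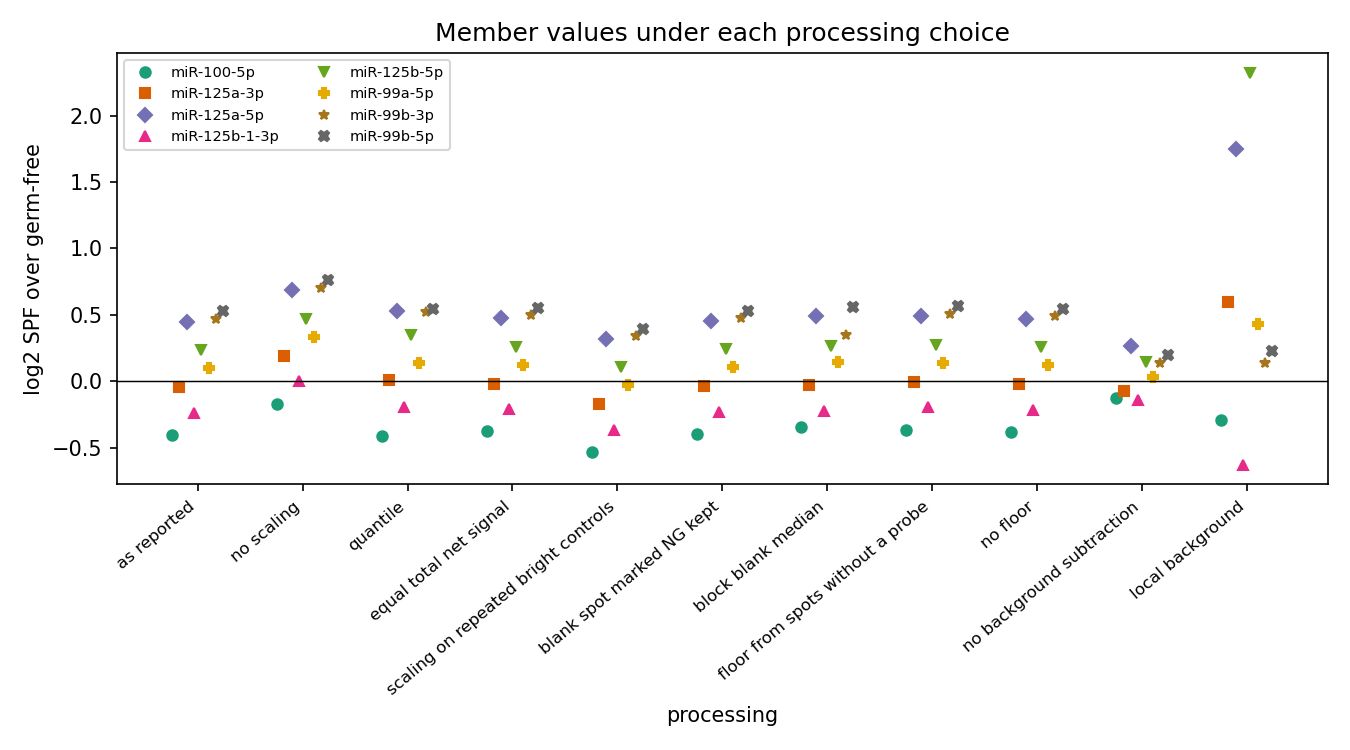
Log2 SPF over germ-free of the 8 shared members under the reported processing and 10 alternatives, 1 symbol per probe. The order of the members is similar over the scalings and floors, the values shrink toward 0 without background subtraction except that of miR-125a-3p (-0.05 to -0.07), and miR-125b-5p and miR-125a-5p reach 2.32 and 1.75 with local background subtraction.

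The directions of 6 members, miR-99b-5p, miR-99b-3p, miR-125a-5p, miR-125b-5p, miR-100-5p and miR-125b-1-3p, were the same in the reported processing and in all 10 alternatives of scaling, background and floor, with miR-125b-1-3p at -0.0024 without scaling. All alternatives reuse the same spots. Keeping the blank marked NG, equal total signal and the 2 other floors gave scale factors of 0.854 to 0.873, against 0.849, so these could hardly turn a sign. miR-99a-5p changed sign when the arrays were scaled on the bright controls, at -0.03, and miR-125a-3p was at 0.19 without scaling, 0.01 with quantile normalization and 0.59 with local background subtraction. The 2 values that moved most were those of miR-125b-5p and miR-125a-5p, with local background subtraction. The miR-125b-5p spot on the germ-free array had an intensity of 414.8 and a local background of 382.8, so that little was left after subtraction, against 554.4 and 338.6 on the SPF array. Its log2 value was then 2.32, and that of miR-125a-5p, whose germ-free intensity and local background were 314.3 and 280.6, was 1.75. Repeated spots of the bright controls spread by 1.30 (SD of log2) under this subtraction, against 0.09 with the blank spots. Over the 2 arrays, 8 of these control spots did not exceed their local background and were left out of that SD. Among the shared probes the local background rose with spot intensity, with Spearman correlations of 0.95 for germ-free and 0.88 for SPF.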

How the data were processed

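Each array file holds, per the file headers, a median spot intensity and a median local background intensity at 635 nm for 3200 spots, scanned at 3 gains. The deposited intensity values show no background subtraction or scaling by the authors. Per the labels' protocols, a Qiagen kit was used for extraction and an Exiqon kit for labelling with Hy5. The sources used here do not give the platform, probe sequences or scanner software.

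The mean of the blank spots (896 for germ-free, and 895 for SPF, where 1 marked NG was left out) was subtracted. SPF values were multiplied by 0.849 to give the probes above the floor on both arrays the same median. The technical SD of a log2 difference combines the SD of blank spots (4.53 and 5.33) with the pooled log2 SD of 5 control probes with 8 spots each (0.0908). Each miRNA probe has 1 spot, and the number of arrays limits the precision. No test between groups was run. The text names all member probes, cluster neighbours, sequence relatives and, for the 5p arm of each seed group with the highest mean level over the 2 arrays, the 3 nearest probes by intensity. The members, lists and alternatives were chosen with earlier results of these data known. The procedure was tested on simulated data with changes larger than any member's value under the reported processing. That test does not cover differences of the members' size. Python 3.11.15, numpy 2.4.6 and pandas 2.3.3 were used.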

Additional observations from a re-analysis of the deposited data

How the results depend on the processing

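The members' median log2 SPF over germ-free, 0.16 as reported, was 0.40 without scaling, 0.036 with scaling on the bright controls and 0.31 with the blank median of each block as background. The first 2 moved the median of all shared probes from -0.06 to 0.18 and -0.19. Both multiply every SPF value by 1 factor, so they leave the distance of 0.22 between the members' median and that of all shared probes as it was. With the blank median of each block, the members' median was taken over 10 probes instead of 8. It then also held miR-99a-3p at 0.65 and miR-125b-2-3p at 0.37, both under the level of spots without a probe. Each of the 8 shared members moved by less than its technical SD in that setting, so 0.31 is not directly comparable with 0.16. With local background subtraction 2 members, miR-125b-5p and miR-125a-5p, were at least 2-fold higher, against 0 as reported and in the other alternatives at that threshold. The other 41 member summaries under an alternative moved by less than the technical SD or, for counts, by no more than 1.5 times. Many of these are 2-fold counts that stayed at 0. Without background subtraction the counts above the floor could not change, because the floor was applied to the same net intensities. Without a floor or with local background subtraction all 11 members counted on each array, against 8 for germ-free and 10 for SPF as reported. That change lies within 1.5 times. Over all probes the counts at 2-fold ran from 6 of 1471 to 113 of 1864 higher and from 3 of 1471 to 104 of 1864 lower. As reported they were 23 and 21 of 1471. No paired analysis was possible because each group has 1 array, and for the same reason no array could be left out. Dim spots limit miR-99a-3p, miR-100-3p and miR-125b-2-3p, which cannot be told from empty spots.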
